A study of Mus musculus with 8 samples.

Results

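Cytochrome c oxidase, complex IV of the respiratory chain, is assembled from mitochondrially encoded catalytic subunits and nuclear-encoded subunits, and several of the nuclear subunits exist as isoforms from separate genes. The 10 nuclear genes described here were the 4 isoform pairs Cox4i1 and Cox4i2, Cox6a1 and Cox6a2, Cox7a1 and Cox7a2, and Cox8a and Cox8b, together with Cox7a2l and Cox6b1. They were 10 of the 50599 gene records in each library. The genes and the pairs were chosen with the knockout to wildtype fold changes and ratios of these same libraries already known, so those values chose the members and are given as a description. The count of members past the threshold of the fit is printed beside the same count over all records, and it is no test of the members. All 10 had an adjusted p from the fit and at least 10 counts in every library.

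The measurements were RNA-Seq of total RNA from whole hearts of C57BL/6N mice, which per the study's methods were 12-week-old males. The 4 knockout libraries came from Lrpprc loxP/loxP, Cre+ animals, in which the gene is removed in heart and skeletal muscle only. The 4 control libraries, labelled wildtype, came from animals that carry the same Lrpprc loxP/loxP alleles without Cre. The study states these genotypes for its heart mitochondria and does not repeat them for the RNA-Seq. Each library was made from 1 animal. The promoter driving Cre, and so which cells of the heart keep Lrpprc, is not given in the sources used here. LRPPRC is an RNA-binding protein that keeps mitochondrial mRNAs stable.

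Cox6a2, Cox7a1 and Cox8b are known as the heart or muscle isoforms of their subunits, and Cox6a1, Cox7a2 and Cox8a are known as the liver or ubiquitous isoforms, expressed in most tissues. Heart muscle is known to carry mostly the first set after birth. Cox4i1 is the common isoform of subunit IV and Cox4i2 is the isoform best known from lung and from cells at low oxygen. Cox7a2l encodes a protein related to subunit VIIa that takes part in respiratory supercomplexes, and Cox6b1 encodes the common isoform of subunit VIb, which joins the monomers of the enzyme.

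The promoter windows of 4 genes are shown because these had the highest and lowest knockout to wildtype ratios among the 10. They are RefSeq windows (GRCm38.p6), read 5′ to 3′ on the strand of the gene, with 250 bases before and 50 bases after the annotated start. Of the 10 genes, 7 matched a window in the table, the others being Cox6a2, Cox4i1 and Cox4i2. Capitals mark matches to 4 motifs on either strand. The core of the NRF-1 motif was searched as GCATGCGC. The core that ETS family factors are known to bind was searched as CTTCCG. The TATA box was searched for by its letters TATAAA in the same way. The E-box, known from muscle regulatory genes, was searched for as CANNTG.
Cox6a1, chr5:115348909-115349208, minus strand: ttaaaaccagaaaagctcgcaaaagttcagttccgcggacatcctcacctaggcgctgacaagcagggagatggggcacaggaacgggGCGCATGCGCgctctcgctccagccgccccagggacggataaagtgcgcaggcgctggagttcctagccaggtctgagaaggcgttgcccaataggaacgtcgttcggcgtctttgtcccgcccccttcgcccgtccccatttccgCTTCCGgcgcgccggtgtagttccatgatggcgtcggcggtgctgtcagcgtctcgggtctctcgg
Cox8a, chr19:7217567-7217866, minus strand: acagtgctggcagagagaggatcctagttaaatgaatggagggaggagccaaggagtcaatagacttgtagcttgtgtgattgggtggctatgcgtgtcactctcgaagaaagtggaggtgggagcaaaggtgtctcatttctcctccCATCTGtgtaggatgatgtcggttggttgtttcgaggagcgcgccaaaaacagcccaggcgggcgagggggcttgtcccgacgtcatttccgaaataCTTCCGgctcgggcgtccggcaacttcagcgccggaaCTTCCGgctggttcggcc
Cox7a1, chr7:30183921-30184220, plus strand: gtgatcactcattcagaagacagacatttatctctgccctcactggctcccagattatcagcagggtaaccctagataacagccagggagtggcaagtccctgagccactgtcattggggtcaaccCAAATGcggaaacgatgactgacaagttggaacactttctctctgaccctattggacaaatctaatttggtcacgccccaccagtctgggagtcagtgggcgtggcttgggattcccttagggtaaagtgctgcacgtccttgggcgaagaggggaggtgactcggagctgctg
Cox8b, chr7:140900397-140900696, minus strand: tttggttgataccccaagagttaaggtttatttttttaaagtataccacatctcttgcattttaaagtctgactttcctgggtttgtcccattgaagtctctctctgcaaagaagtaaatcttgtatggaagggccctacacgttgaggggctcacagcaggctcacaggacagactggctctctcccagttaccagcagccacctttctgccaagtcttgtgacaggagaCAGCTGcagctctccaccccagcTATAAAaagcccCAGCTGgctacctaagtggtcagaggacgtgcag

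The window of Cox6a1 held 2 matches to the NRF-1 core, which overlap and begin 162 and 160 bases before the start site, and 1 match to the ETS core. The window of Cox8a held 2 matches to the ETS core and 1 to the E-box. Neither the NRF-1 core nor the ETS core was found in the windows of Cox7a1 and Cox8b or in that of Cox7a2l, whose groups overlapped. The ETS core was also found in the windows of Cox7a2 (1 match) and Cox6b1 (2 matches), whose groups overlapped. Cox7a1 held 1 match to the E-box, and Cox8b held 2 matches to the E-box and 1 to the TATA box, which begins 4 bases after the annotated start. The E-box was also found in the windows of Cox7a2 (1 match), Cox7a2l (1 match) and Cox6b1 (2 matches). Among all 32851 windows of this length, 2.71% held the NRF-1 core, 16.9% the ETS core, 13.6% the TATA box and 72.3% the E-box. The GC content was 63.0% for Cox6a1, 56.0% for Cox8a, 53.0% for Cox7a1 and 48.3% for Cox8b, against a median of 52.7% over all windows. Further motifs were searched on both strands and are not set in capitals. The CCAAT box, searched by the letters of its name, was found in Cox6a1, Cox8a, Cox7a1 and Cox6b1 and in 37.4% of all windows. The GC box, searched as GGGCGG, was found in Cox6a1, Cox7a2 and Cox7a2l and in 35.7% of all windows. The ERR half-site, searched as AAGGTCA, was found in none of the 7 windows and in 4.72% of all windows. These matches describe the letters only.

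Values per library are normalised counts, which are expected counts divided by a size factor and corrected for the effective length of the gene in that library. The targeted gene Lrpprc had 3424 to 3946 normalised counts in the wildtype and 504.3 to 605.4 in the knockout, a log2 change of -2.67 (SE 0.1). Total counts were 35218541 to 47743376 per library. Mitochondrial rRNA took 44.01 to 46.86% of the counts in the wildtype and 65.63 to 67.84% in the knockout. Knockout replicate 3 stood apart for these genes, with the highest count of the 4 knockout libraries in 8 of the 10 genes and the lowest in 1. Its atrial markers summed to 1268 counts, where the other 3 knockout libraries had 3233 to 6012.

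The sums of some lists of cell type markers differed between the groups. The summed counts of the 11 cardiomyocyte markers were 2534367 to 2752367 in the wildtype and 1479020 to 1872797 in the knockout, and 9 of the 11 passed the threshold as lower, Tnnt2 and Actn2 being the exceptions. The 10 pericyte and smooth muscle markers summed to 29064 to 29478 and 17591 to 23322. Of them, 4 were lower (Abcc9, Acta2, Myh11 and Vtn), and the groups of all the others overlapped. Abcc9, the largest fall, averaged 8870 counts in the wildtype and 3701 in the knockout. The 4 atrial markers, 2 of them lower, summed to 9980 to 12038 in the wildtype and 1268 to 6012 in the knockout. The 7 macrophage markers summed to 2678 to 3494 in the wildtype, to 3779 and 3082 in knockout replicates 1 and 3 and to 7279 and 6311 in knockout replicates 2 and 4, with 6 higher. The sums of 7 fibroblast markers (2 higher), 6 endothelial markers (0 called) and 5 erythroid markers (0 called) overlapped between the groups. The sum of the 7 adipose markers was 321.9 to 420.3 in the wildtype and 510.2 to 827.8 in the knockout, where 1 marker had a mean under 1 count. Cidea was the 1 marker called and averaged 264.5 counts in the wildtype and 538.4 in the knockout. The median log2 difference of the 7 was -0.41, so the higher sum rests on Cidea. The 5 skeletal muscle markers summed to 5.44 to 13.91 and 14.11 to 37.74, with 1 higher and 2 at a mean under 1 count. Fewer cardiomyocytes and less of these RNAs per cardiomyocyte cannot be told apart in RNA from a whole heart, and the part of the other cell types in the values below was not tested.

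Of the 10 genes, 5 passed an adjusted p of 0.05 (DESeq2) and the groups of 5 did not overlap, with 2 higher and 3 lower in the knockout. Among the 19959 records tested, 33.7% passed, 18.2% as higher and 15.5% as lower, and the groups did not overlap in 33.0%, with the knockout above in 16.7% and below in 16.4%. Scaled to total counts, 2 of the 10 genes passed as higher and 6 as lower, and scaled to totals without mitochondrial rRNA (rRNA-free totals) 6 passed as higher and 2 as lower. Since the genes were chosen on this contrast, nothing is read from these counts.

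**Figure D1:**
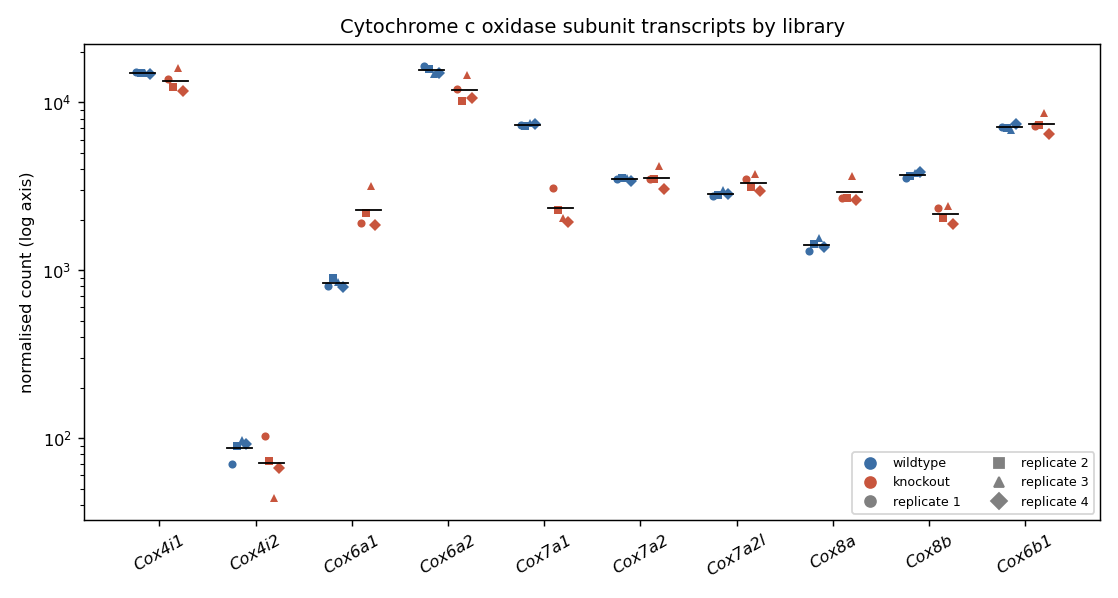
Normalised counts (log axis) of the 10 genes in the 4 wildtype libraries (blue) and the 4 knockout libraries (red), with 1 marker shape per replicate and a bar at the group mean. Cox6a1 and Cox8a lie higher and Cox6a2, Cox7a1 and Cox8b lower in every knockout library than in every wildtype library on this scale, and the triangle of knockout replicate 3 is at the top of its group in 8 of the 10 genes.

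Among the isoforms known from liver and most tissues, the counts of Cox6a1 (ENSMUSG00000041697.8, chromosome 5 from 115345642 to 115348981, minus strand, GRCm38, protein coding), which encodes the ubiquitous form of subunit VIa, were 800.5, 895.1, 854.3 and 790.7 in the wildtype (replicates 1 to 4, here and below in that order) and 1910, 2180, 3159 and 1870 in the knockout. Every knockout library was above every wildtype library, and knockout replicate 3 was the highest. The fitted log2 difference was 1.45 ± 0.174 (SE), which is 2.73-fold, and 1.25 without knockout replicate 3.

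The counts of Cox8a (ENSMUSG00000035885.4, chromosome 19 from 7215153 to 7217616, minus strand), the ubiquitous form of subunit VIII, were 1307, 1426, 1561 and 1382 in the wildtype and 2678, 2702, 3658 and 2620 in the knockout. The 3 knockout libraries other than replicate 3 lay close together, all above the wildtype. The fitted log2 difference was 1.04 ± 0.135 (SE), and 0.91 without knockout replicate 3.

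Cox7a2 (ENSMUSG00000032330.7, chromosome 9 from 79755361 to 79759878, minus strand), the ubiquitous form of subunit VIIa, had 3498, 3562, 3543 and 3377 counts in the wildtype and 3507, 3505, 4173 and 3035 in the knockout. The groups overlapped, and the log2 difference, 0.02, was smaller than its SE of 0.111. Of the isoforms known from liver, those of subunits VIa and VIII were thus higher in the knockout hearts, and a difference for that of subunit VIIa was not detectable at this spread with the size factors used. Cox7a2 was -0.28 with total-count scaling and 0.44 with rRNA-free totals.

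Among the isoforms known from heart and muscle, Cox7a1 (ENSMUSG00000074218.3, chromosome 7 from 30184144 to 30186078, plus strand), the muscle form of subunit VIIa, had 7298, 7259, 7478 and 7412 counts in the wildtype and 3067, 2294, 2058 and 1941 in the knockout. All knockout libraries lay far below the narrow wildtype range, with knockout replicate 1 the highest of them. The fitted log2 difference was -1.65 ± 0.147 (SE), the lowest of the 10 genes.

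Cox8b (ENSMUSG00000025488.9, chromosome 7 from 140898945 to 140900446, minus strand), the muscle form of subunit VIII, had 3544, 3628, 3793 and 3832 counts in the wildtype and 2346, 2038, 2407 and 1889 in the knockout. The groups did not overlap, and the fitted log2 difference was -0.77 ± 0.105 (SE).

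Cox6a2 (ENSMUSG00000030785.8, chromosome 7 from 128205435 to 128206387, minus strand), the muscle form of subunit VIa, had 16530, 15732, 14801 and 14889 counts in the wildtype and 12014, 10188, 14585 and 10572 in the knockout. The groups did not overlap, but knockout replicate 3 lay just below the lowest wildtype library. The fitted log2 difference was -0.39 ± 0.129 (SE), with a range of -0.50 to -0.32 when 1 library was left out. Cox6a2 no longer passed the threshold without knockout replicate 2 or 4 or without wildtype replicate 1. Its exons overlap those of Itgad on the opposite strand, which averaged 2.30 counts in the wildtype and 5.37 in the knockout, and per the methods the counting used strand.

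The sizes of the differences depended on what the counts were scaled to. Cox6a1, Cox8a, Cox7a1 and Cox8b kept their direction with every scaling tried, and the sign of the other 6 genes changed with at least 1 of them. Over the 15754 records averaging at least 10 normalised counts, total-count scaling moved the median log2 difference from 0.02 to -0.28, and rRNA-free totals moved it to 0.44. Cox6a2 was -0.70 with the first and 0.03 with the second. Cox6a1 was 1.14 and 1.86 in the same order, Cox8a was 0.73 and 1.45, Cox7a1 was -1.95 and -1.23, and Cox8b was -1.07 and -0.35. A scaling shifts all records nearly alike by construction. Relative to the median record, with the size factors used, Cox6a1 was 1.43, Cox8a 1.02, Cox6a2 -0.41, Cox8b -0.79 and Cox7a1 -1.67.

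Set against the summed cardiomyocyte markers, a scale chosen after the data were seen, the values moved upward by the fall of 0.63 in that sum. Ttn and Myh6, averaging 1378601 and 553949 counts in the wildtype, made up most of the sum. Their log2 differences were -0.45 and -0.87, while those of the 11 markers ran from -1.46 (Pln) to 0.10 (Actn2). The values below therefore depend on the markers summed. Cox7a1 was 2.65 to 2.95 counts per 1000 marker counts in the wildtype and 1.17 to 1.64 in the knockout, a log2 difference of -1.04 with the groups still apart. Cox8b was 1.29 to 1.51 and 1.22 to 1.37 on this scale, so the groups overlapped and the difference was -0.14. Cox6a2 was 5.84 to 6.01 and 6.09 to 8.30, higher in every knockout library with a difference of 0.23. Cox6a1 and Cox8a had differences of 2.05 and 1.66, and all knockout libraries remained above all wildtype libraries. Cox7a2 was 1.271 to 1.398 on this scale in the wildtype and 1.87 to 2.38 in the knockout, a difference of 0.65. Cox4i1, Cox7a2l and Cox6b1 were likewise higher in every knockout library, with differences of 0.47, 0.85 and 0.69, and Cox4i2 overlapped (0.29).

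**Figure D2:**
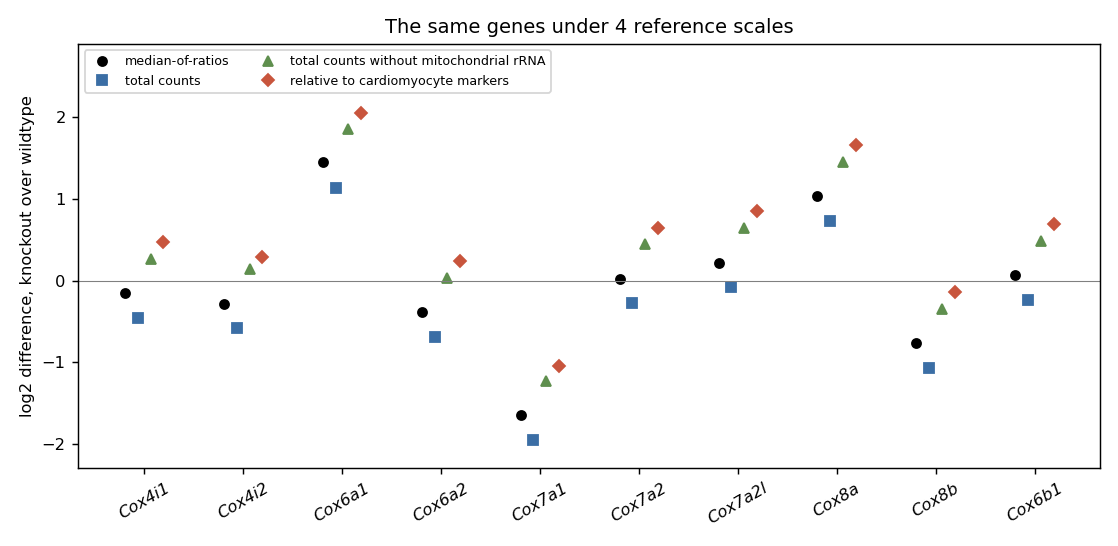
Log2 difference between knockout and wildtype for each of the 10 genes on 4 scales, the median-of-ratios size factors (circles), total counts (squares), total counts without mitochondrial rRNA (triangles) and counts relative to the summed cardiomyocyte markers (diamonds). Cox7a1 stays below 0 and Cox6a1 and Cox8a above 0 on all 4 scales, Cox8b stays below 0 but reaches -0.14, and Cox6a2 crosses 0.

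Subunit IV differed less. Cox4i1 (ENSMUSG00000031818.12, chromosome 8 from 120668222 to 120674207, plus strand) had 15053, 14980, 14976 and 14705 counts in the wildtype and 13698, 12322, 15961 and 11699 in the knockout. Knockout replicate 3 lay above and the other 3 knockout libraries below all wildtype libraries, and the log2 difference was -0.15 ± 0.112 (SE). It was -0.09 without knockout replicate 4 and -0.25 without knockout replicate 3, where Cox4i1 passed the threshold as lower. It was -0.46 with total-count scaling and 0.26 with rRNA-free totals. Cox4i2 (ENSMUSG00000009876.13, chromosome 2 from 152754173 to 152765037, plus strand) had 70.16, 89.96, 97.86 and 92.19 counts in the wildtype and 103.0, 72.86, 43.73 and 66.73 in the knockout. The groups overlapped, and the log2 difference was -0.29 ± 0.269 (SE), or -0.58 with total-count scaling and 0.14 with rRNA-free totals. It ranged from -0.52 to -0.12 when 1 library was left out. Cox4i2 was the least abundant of the 10 genes, so its counting error is the largest among them. The locus of Cox4i1 overlaps Gm20388 on the same strand, without shared exons, and Emc8 on the opposite strand.

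Cox6b1 (ENSMUSG00000036751.7, chromosome 7 from 30616861 to 30626151, minus strand) had 7152, 6999, 6881 and 7394 counts in the wildtype and 7264, 7322, 8643 and 6491 in the knockout. The wildtype range lay within the knockout range, and the log2 difference was 0.06 ± 0.105 (SE), or -0.24 with total-count scaling and 0.48 with rRNA-free totals. Cox7a2l (ENSMUSG00000024248.13, chromosome 17 from 83501918 to 83517330, minus strand) had 2775, 2808, 3007 and 2844 counts in the wildtype and 3491, 3133, 3740 and 2943 in the knockout. Only knockout replicate 4 fell inside the wildtype range, and the fitted log2 difference was 0.22 ± 0.101 (SE), or -0.09 with total-count scaling and 0.64 with rRNA-free totals. It was 0.16 to 0.27 when 1 library was left out, and the upper end, without knockout replicate 4, passed the threshold as higher. Cox7a2l was the 1 gene of the 10 with a near-identical annotated copy, the processed pseudogene Gm6969, which had at most 14.4 counts in any library.

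The ratio within a pair compares 2 genes in the same library, so the size factor of the library drops out of it. It was taken from normalised counts per kilobase, that is counts divided by the mean effective length of the gene. No partners of a pair matched each other at 85% identity over 100 bases in their transcripts. In the wildtype hearts the heart isoforms of subunits VIa, VIIa and VIII were each more abundant per length than their partners in every library, which is the order that the names of the isoforms give.

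The Cox6a1 to Cox6a2 ratio was 0.0614, 0.0721, 0.0732 and 0.0673 in the wildtype and 0.202, 0.271, 0.275 and 0.224 in the knockout. All knockout ratios were above all wildtype ratios, and even the highest left Cox6a2 well ahead of Cox6a1. The geometric mean went from 0.0683 to 0.241, a log2 difference of 1.82 ± 0.123 (SE, n = 4 per group), and of 1.75 without knockout replicate 3.

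The Cox7a1 to Cox7a2 ratio was 4.25, 4.15, 4.30 and 4.47 in the wildtype and 1.78, 1.33, 1.004 and 1.30 in the knockout. The wildtype ratios were tightly grouped and the knockout ratios spread down to nearly equal levels of the 2 isoforms in replicate 3. The geometric mean went from 4.29 to 1.33, a log2 difference of -1.69 ± 0.170 (SE), and of -1.56 without knockout replicate 3. In raw expected counts the geometric mean went from 2.14 to 0.642, so the order of the isoforms in the knockout depends on the length correction.

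The Cox8a to Cox8b ratio was 0.190, 0.202, 0.212 and 0.185 in the wildtype and 0.587, 0.682, 0.781 and 0.713 in the knockout. All knockout ratios were above all wildtype ratios and none reached 1. The geometric mean went from 0.197 to 0.687, a log2 difference of 1.80 ± 0.0964 (SE), and of 1.74 without knockout replicate 3. In raw expected counts, without the length correction, the geometric mean went from 0.383 to 1.34, so which isoform is the more abundant in the knockout depends on the length correction.

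The Cox4i1 to Cox4i2 ratio was 208.4, 161.7, 148.6 and 154.9 in the wildtype and 129.1, 164.2, 354.4 and 170.2 in the knockout. The groups overlapped, and the value of knockout replicate 3 was the highest by a wide margin. The log2 difference was 0.18 ± 0.333 (SE), and its sign changed without knockout replicate 3 (-0.12).

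**Figure D3:**
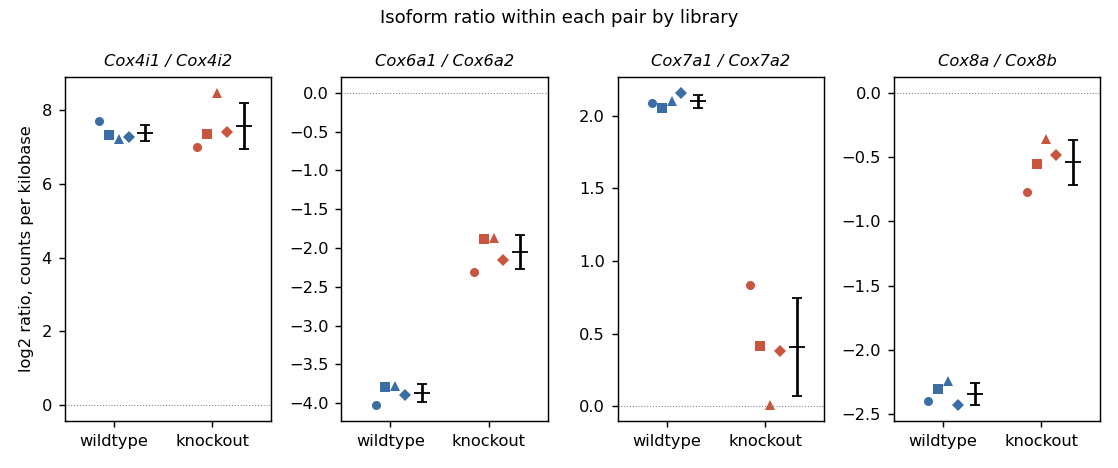
Log2 ratio of normalised counts per kilobase within each isoform pair, for the 4 wildtype (blue) and 4 knockout (red) libraries, with the mean and SD as black bars and each panel on its own axis. The groups are apart for Cox6a1/Cox6a2, Cox7a1/Cox7a2 and Cox8a/Cox8b and overlap for Cox4i1/Cox4i2, and the dotted line marks equal levels.

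The 3 shifted pairs differed in which partner moved. With the size factors used, the groups of the subunit VIIa partner Cox7a2 overlapped, and the sum of both isoforms per kilobase was 39602 ± 424 in the wildtype and 17828 ± 2430 in the knockout (SD, n = 4), with all knockout libraries below. For subunit VIa the sum was 32163 ± 1570 and 28631 ± 5180 (SD, n = 4), and for subunit VIII it was 22702 ± 890 and 18802 ± 2350 (SD, n = 4). These sums of subunits VIa and VIII overlapped between the groups through knockout replicate 3 alone (36134 and 21979), and the other 3 knockout libraries lay below every wildtype library, as they also did for subunit IV. That order holds for the size factors used. With rRNA-free totals the log2 differences of Cox4i1 and Cox6a2, the larger parts of the sums of subunits IV and VIa, were 0.26 and 0.03. The share of the pair held by Cox6a1 was 6.41% ± 0.472 in the wildtype and 19.49% ± 2.34 in the knockout (SD, n = 4). That of Cox8a was 16.46% ± 0.831 and 40.75% ± 2.87 (SD, n = 4). The share held by Cox7a1 was 81.08% ± 0.474 and 56.94% ± 5.69 (SD, n = 4).

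**Figure D4:**
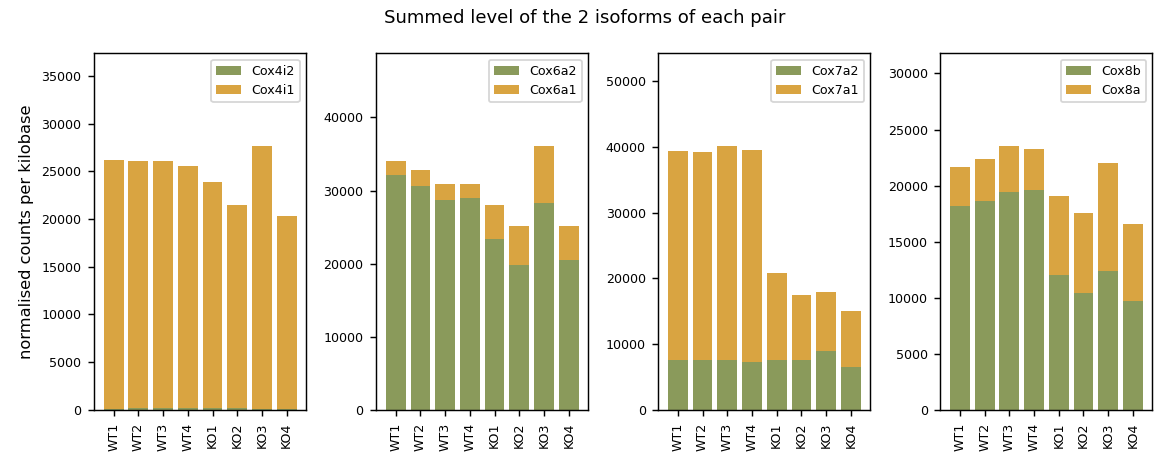
Summed level of the 2 isoforms of each pair in normalised counts per kilobase, for wildtype libraries WT1 to WT4 and knockout libraries KO1 to KO4, with the first named isoform stacked in yellow on its partner in green. The bars of subunit VIIa are lower in all 4 knockout libraries, where the yellow part of Cox7a1 shrinks, and the green part of Cox7a2 is below the wildtype range in KO4 alone, and in the other pairs KO3 alone reaches or exceeds the wildtype range while the other 3 knockout libraries lie below it.

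Taken over the 3 pairs, the summed level of Cox6a2, Cox7a1 and Cox8b was 82129, 80841, 80829 and 80913 normalised counts per kilobase in the wildtype and 48753, 40255, 49671 and 38698 in the knockout. The summed level of Cox6a1, Cox7a2 and Cox8a was 12915, 13599, 13812 and 12829 in the wildtype and 19278, 20007, 26366 and 18017 in the knockout. The heart isoforms together thus still exceeded their partners in every knockout library.

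The order of the genes by level differed between the groups. In the wildtype the normalised counts per kilobase were 32110 for Cox7a1, 30105 for Cox6a2, 25818 for Cox4i1, 18963 for Cox8b, 16610 for Cox6b1, 7492 for Cox7a2, 3738 for Cox8a, 3128 for Cox7a2l, 2058 for Cox6a1 and 155.9 for Cox4i2, as means of 4 libraries. Of these neighbours, only the ranges of Cox7a1 and Cox6a2 overlapped. In the knockout the means were 23209 for Cox4i1, 23014 for Cox6a2, 17365 for Cox6b1, 11123 for Cox8b, 10207 for Cox7a1, 7679 for Cox8a, 7621 for Cox7a2, 5617 for Cox6a1, 3640 for Cox7a2l and 127.5 for Cox4i2. The ranges were apart between Cox6b1 and Cox8b, between Cox6a1 and Cox7a2l and between Cox7a2l and Cox4i2, and overlapped for the other neighbours. Cox7a1, first in the wildtype on this scale, stood below 4 of the other genes in the knockout. Its first place depends on the division by length. In normalised counts it averaged 7361 in the wildtype, below Cox6a2 (15488) and Cox4i1 (14929).

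The 10 genes varied more between knockout animals than between wildtype animals. The coefficient of variation over the 4 libraries was 1.03 to 13.8% in the wildtype with a median of 3.64%, and 10.7 to 34.1% in the knockout with a median of 15.4%. It was larger in the knockout for 10 of 10 genes, and also for 75.1% of the 15741 tested records averaging at least 10 counts, whose median went from 11.6% in the wildtype to 19.2% in the knockout.

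Of the 10 genes, 7 have more than 1 transcript in the annotation used by the authors, and the deposited mean transcript length, weighted by abundance, was compared for these 7. The length of Cox7a2 was 625.0 ± 8.06 bases in the wildtype and 639.0 ± 6.04 bases in the knockout (SD, n = 4), the largest difference of the 7, and the ranges overlapped (exact permutation test, two-sided p = 0.0571, adjusted p = 0.133). Cox6b1 changed by -2.43 bases and the other 5 genes by less, and none of the 7 passed after Benjamini-Hochberg adjustment. The smallest unadjusted p that 70 assignments allow in this permutation test, 0.0286, was reached by Cox6a1. Over 7 genes, 1 gene at that smallest p cannot pass alone. Not passing therefore does not show that the transcript mix was unchanged.

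The other nuclear subunits were compared to place the isoform genes within the complex. Of 10 listed, 8 had an adjusted p and 2 passed it, both lower, with a median log2 difference of -0.28, against a median of 0.00504 over all records tested and 33.7% of them past the threshold. Cox6c, which encodes subunit VIc, fell from 7513 ± 232 to 4888 ± 671 normalised counts (SD, n = 4), or -0.62 ± 0.114 (SE) on the log2 scale (DESeq2, adjusted p = 5.48e-07). Cox6c was -0.93 with total-count scaling (DESeq2, adjusted p = 7.09e-29) and -0.20 with rRNA-free totals (DESeq2, adjusted p = 0.0444). Cox7b, which encodes subunit VIIb, fell from 8297 ± 228 to 6679 ± 931 (SD, n = 4), or -0.31 on the log2 scale (DESeq2, adjusted p = 0.0196), and this call was lost without knockout replicate 2 or 4 and without wildtype replicate 1 or 4. With rRNA-free totals Cox7b had 0.10 on the log2 scale, not past the threshold (DESeq2, adjusted p = 0.328). Leaving out 1 library changed the count of the list. Without knockout replicate 3, 6 passed, all as lower, and without knockout replicate 2 or 4 or wildtype replicate 1 or 4, 1 passed. With total-count scaling 0 passed as higher and 6 as lower, and with rRNA-free totals 2 passed as higher and 1 as lower.

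The remaining members of that list did not pass in the fit reported. Cox5a and Cox5b, the subunits Va and Vb that sit on the matrix side, had log2 fold changes of -0.06 and -0.17. Both passed as lower with total-count scaling (-0.36 and -0.47) and as higher with rRNA-free totals (0.36 and 0.25). Without knockout replicate 3 both passed as lower (-0.18 and -0.27). Cox7c had -0.28, Ndufa4, now counted as a subunit of complex IV, had -0.29, and its paralogue Ndufa4l2 had -0.08. Cox7c passed as lower without the length offset (-0.31) and Ndufa4 with edgeR (-0.31). Both also passed as lower with total-count scaling and without knockout replicate 3. Cox6b2, Cox7b2 and Cox8c, known from testis, had means of at most 9.13 counts in either group.

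**Figure D5:**
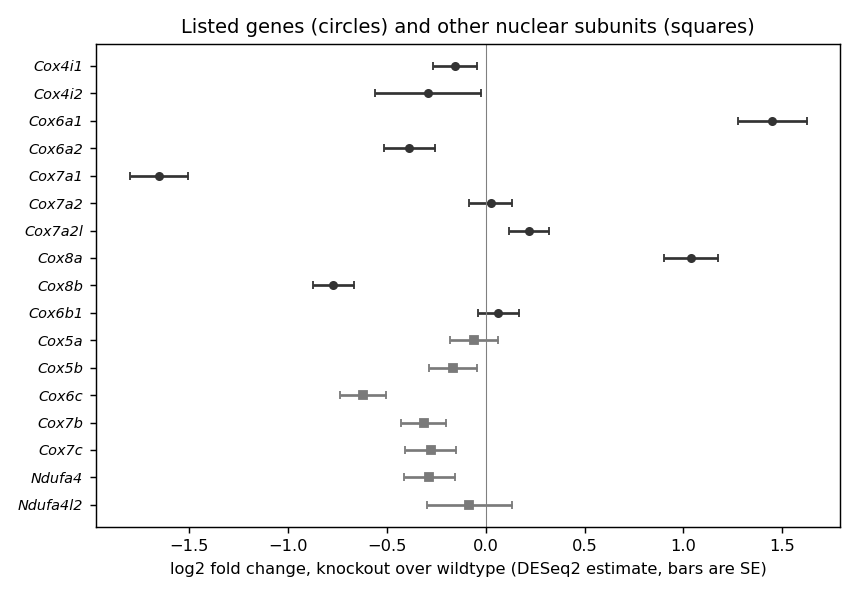
Log2 fold change, knockout over wildtype, with its standard error, for the 10 isoform genes (circles) and the 7 other nuclear subunits that averaged 10 or more normalised counts (squares). Cox6a1 and Cox8a lie furthest to the right and Cox7a1 furthest to the left, and the other subunits lie between -0.62 and -0.06.

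Of 26 assembly factors of complex IV, all tested, 3 passed as higher and 6 as lower, with a median log2 fold change of -0.02. Over all records tested 18.2% passed as higher and 15.5% as lower, 33.7% in all, so the count of the list is near the background. Cox19, which takes part in copper delivery to the enzyme, rose from 389.4 ± 51.9 to 814.1 ± 116 counts (SD, n = 4), or 1.07 on the log2 scale (DESeq2, adjusted p = 2.41e-11). Coa7 had 0.69 on the log2 scale (DESeq2, adjusted p = 0.000797), a direction that rests on the length offset, since without it the value was -0.88 (DESeq2, adjusted p = 9.68e-10). Its mean effective length was 3128 ± 479 bases in the wildtype and 1083 ± 392 in the knockout (SD, n = 4), and the call was also lost with total-count scaling (DESeq2, adjusted p = 0.0796). Cmc2, a partner in the biogenesis of the enzyme, had -0.56 (DESeq2, adjusted p = 0.00327), not kept with rRNA-free totals (DESeq2, adjusted p = 0.558). With total-count scaling 1 of the list passed as higher and 14 as lower. With rRNA-free totals 16 passed as higher and 0 as lower. Of the list, 5 passed in all without knockout replicate 2 or wildtype replicate 1 and 4 without knockout replicate 4 or wildtype replicate 4.

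Of 18 known regulators of cytochrome c oxidase genes, all tested, 1 passed as higher and 7 as lower, with a median log2 fold change of -0.19, against 18.2% higher and 15.5% lower over all records tested. The lists of regulators, assembly factors and other subunits were chosen with earlier results of these data known, so their counts are no test. Hif1a, the oxygen-regulated transcription factor known to act on Cox4i2, rose from 1843, 1796, 1636 and 1938 counts in the wildtype to 5027, 5447, 5349 and 6707 in the knockout, or 1.64 ± 0.118 (SE) on the log2 scale (DESeq2, adjusted p = 7.74e-42). Ppargc1b, a coactivator of mitochondrial biogenesis, fell from 679.3 ± 121 to 340.3 ± 69.9 counts (SD, n = 4), or -1.0 on the log2 scale (DESeq2, adjusted p = 2.11e-06). Cxxc5, which is known to bind the Cox4i2 promoter, had -0.71 (DESeq2, adjusted p = 0.00315), not kept with rRNA-free totals (DESeq2, adjusted p = 0.354). With total-count scaling 1 passed as higher and 13 as lower, and with rRNA-free totals 7 passed as higher and 1 as lower. Of the list, 5 passed in all without knockout replicate 2 or wildtype replicate 1. Hif1a and Ppargc1b kept their calls under both scalings.

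The mitochondrially encoded subunits of the same complex are given by value only. The log2 difference of mt-Co1 was -4.66, and 2 near-identical nuclear copies of it summed to at most 158997 counts, against 1768705 to 1903129 for mt-Co1 itself in the wildtype. The record of mt-Co2 had 294.2 to 440.0 counts in the wildtype and 18.8 to 67.9 in the knockout, while its 2 nuclear copies summed to at most 516752 and 68200. The record of mt-Co3 had 658.5 to 877.6 counts in the wildtype and at most 24.44 in the knockout, while its 1 nuclear copy had at most 723080 and 20074. How the reads were split between these records and their copies is uncertain, so no fold is given for mt-Co2 and mt-Co3. None of the 10 nuclear genes differed by as much as mt-Co1.

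The genes whose counts followed an isoform gene most closely over the 8 libraries were found by the root mean square difference of log2 normalised counts, each relative to its wildtype mean, among 9792 genes with a mean of at least 100 counts. They were Serpinb6a (0.0864) and Adssl1 (0.103) for Cox6a1, and Wdr1 (0.0550) and Tbrg1 (0.0668) for Cox8a. For Cox7a1 the nearest was Cmss1 (0.0826). For Cox8b they were Ndufv3 (0.0383) and Jmjd4 (0.0536), and for Cox6a2 Slc25a11 (0.0555) and Ndufab1 (0.0626). For Cox7a2 they were Samm50 (0.0404) and Kdm5a (0.0428). Ndufv3 and Ndufab1 encode proteins of respiratory complex I and Slc25a11 a mitochondrial carrier, while Wdr1 encodes an actin-regulating protein. The distances describe these 8 libraries, which share the group difference.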

How the data were processed

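RNA-Seq was measured in 8 libraries, grouped by sample titles as 4 wildtype and 4 knockout. The authors made the deposited expected counts with RSEM 1.2.31 and bowtie2 (reverse-stranded, paired-end, GENCODE vM13 transcripts with their own mitochondrial sequences), build mm10, and one library per file. The deposited TPM values by RSEM served only for alternative ratios. The deposited gene lengths and effective lengths, other values of the authors' files, are in bases. Their table of fold changes and p-values was not used, nor was a table of normalised counts whose 8 columns match no sample label.

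Expected counts were rounded, effective lengths of 0 set to 1 and DESeq2 1.42.0 (R 4.3.3) fitted over the 8 libraries (genotype alone in the model), with effective lengths as offset, median-of-ratios size factors, no shrinkage and Benjamini-Hochberg adjustment over the whole table (threshold 0.05). Symbols came from GENCODE M21 (50339 of 50563 Ensembl identifiers matched). Copies were transcripts matching at 95% over at least 200 bases. Depth was 35218541 to 47743376 counts, which limits Cox4i2 most.

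The members, the pairs and the gene lists were chosen with earlier results of these data known. The named genes were the 10 members, Lrpprc, the other nuclear subunits with a mean of at least 10 counts, the 3 largest changes past the threshold among the assembly factors and among the regulators, mt-Co1 to mt-Co3, and the 2 nearest profiles of each of 6 isoform genes, of which 1 is not reported here. Tnnt2, Actn2, Cidea, Abcc9, Acta2, Myh11, Vtn, Ttn, Myh6, Pln and the genes overlapping a member or copied from one were named after their values were seen. The alternatives tried were TMM with edgeR 4.0.16, a fit without length offset, at least 10 counts in 4 libraries, nuclear size factors, total-count scaling, rRNA-free total counts, a replicate block, summed copies, other ratio units, a pseudocount of 0.1 TPM and leaving out each library. The fitting code was tested on simulated data. No replicates agreed within sampling noise (chi-square per degree of freedom 4.65 to 52.9). Each library is 1 animal.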

Additional observations from a re-analysis of the deposited data

Results flagged for a closer look

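Of 56 groups of 4 libraries examined for 1 library far from the other 3, 4 were flagged, and chance flags about 1 in 20, that is 2.80. In the knockout, replicate 3 had a Cox8a count of 3658 against 2620 to 2702 in the other libraries and a Cox5a count of 7574 against 5465 to 5790. The Cox8a to Cox8b ratio of that library, 0.781, was the highest of its group but was not far from the others by the same measure. The Lrpprc count of knockout replicate 2, 504.3, lay below those of the other knockout libraries, 597.4 to 605.4. The Cox6c count of wildtype replicate 1, 7861, lay above the 7385 to 7404 of the other wildtype libraries. The part of atrial tissue or of other differences between animals in these values was not tested.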

How the results depend on the processing

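Of 170 recomputed fold changes of the 10 genes, 143 stayed within 1 SD of the replicates and 27 moved by more, under the 2 total-count scalings or relative to cardiomyocyte markers. The sign changed in 11 of the 170, over 6 genes (Cox4i1, Cox4i2, Cox6a2, Cox7a2, Cox7a2l and Cox6b1). Of these, Cox6a2 was past the threshold in the fit reported, and turned to 0.0288 with total counts without mitochondrial rRNA and to 0.23 relative to cardiomyocyte markers. Without knockout replicate 3 the sign of Cox7a2 (-0.06) and of Cox6b1 (-0.02) changed. All 52 recomputed pair ratios stayed within 1 SD, and that of Cox4i1 to Cox4i2, near 0, changed sign in 1 (-0.12 without knockout replicate 3, range over left-out libraries -0.12 to 0.36). The log2 difference of Cox6a1 to Cox6a2 ranged from 1.75 to 1.90 over left-out libraries, that of Cox7a1 to Cox7a2 from -1.83 to -1.56 and that of Cox8a to Cox8b from 1.74 to 1.88.

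The number of the 10 genes past the threshold, a count added after seeing the data, was 5, and 8 with either total-count scaling, and 4 to 6 without 1 library. The other nuclear subunits past the threshold were 2, with 6 under total-count scaling and 1 to 6 without 1 library (1 without knockout replicates 2 or 4 or wildtype replicates 1 or 4, 6 without knockout replicate 3). The assembly factors were 9, with 15 and 16 under total-count scaling and under totals without mitochondrial rRNA, and 4 to 6 without 1 library (5 without knockout replicate 2 or wildtype replicate 1, 4 without knockout or wildtype replicate 4). The regulators were 8, with 14 under total-count scaling and 5 to 9 without 1 library (5 without knockout replicate 2 or wildtype replicate 1). Among all records 6728 passed, 3628 higher and 3100 lower, against 1924 higher and 5912 lower with total-count scaling and 7950 higher and 1111 lower without mitochondrial rRNA. The cause of these changes was not tested.

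The replicate numbers did not pair the samples, with correlations of -0.0735 to 0.0723 between same-numbered libraries. With the number as a block 4 assembly factors passed in place of 9, and 5525 of all records in place of 6728. The block moved no other count of calls by over 1.5 times. Depth limits Cox4i2, with at most 103.0 normalised counts, more than the other genes.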
